A study of Danio rerio with 6 samples.

Results

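Messenger RNA levels of Jak kinases and Stat transcription factors were examined in the dissected guts of zebrafish (Danio rerio) larvae, aged 5 days post-fertilization (dpf). Larvae lacking il26, homozygous for a deletion made with CRISPR/Cas9 and labelled il26KO, gave 3 libraries, and wild-type (WT) larvae gave 3. No further allele, agent or infection separated the groups in the sources used here. Each library pooled 10 to 15 guts. The mutant and WT larvae came from clutchmate adults kept in separate tanks by genotype, so genotype and parental tank cannot be told apart. The genes were chosen by symbol: jak1, jak2a, jak2b, tyk2, stat1a, stat1b, stat2, stat3, stat5a and stat6. The table of 15419 genes held counts for 9 of these 10, and 8 had enough counts to be tested among 11095 genes. tyk2 was not analysed here.

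Jak kinases sit on the intracellular tails of cytokine receptors, which have no kinase activity of their own. When a ligand brings receptor chains together, the kinases phosphorylate each other, the receptor and the Stat proteins that dock there, and paired Stats enter the nucleus and bind DNA. In humans, interleukin-26 acts through the receptor chains IL20RA and IL10RB and activates STAT3. In the gut, Stat3 is known for its part in epithelial repair and Stat6 for responses to interleukin-4 and interleukin-13. Since these proteins are switched on by phosphorylation, the level of their mRNA is not a measure of their activity.

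Libraries held between 15693057 and 28303340 counts, and 3 counts, taken as the lower limit of detection, corresponded to 0.106 to 0.192 CPM (counts divided by the scaled library size). il26 itself had 0 counts in all 6 libraries, il26KO and WT alike, so its level could not check the genotype labels. The 15 pairs of libraries differed by a chi-square of 16.3 to 53.1 per degree of freedom, well above sampling noise, and were counted as separate samples. Enterocyte markers summed to 6376 to 7499 CPM in il26KO and 5861 to 7933 CPM in WT, with 0 of 7 markers at 0. Of these markers, fabp2 was low, with 45 counts in all and 2 in WT replicate 2, under the limit of detection. Acinar pancreas markers reached 24504 to 38771 CPM in il26KO and 30653 to 39563 CPM in WT, and liver markers 5320 to 6542 CPM in il26KO and 3468 to 8326 CPM in WT, so RNA of these organs was present too.

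The central question was whether loss of il26 changed the mRNA of the kinases and transcription factors that carry cytokine signals. None of the 8 tested genes was called: at an adjusted p below 0.05 (edgeR quasi-likelihood test, Benjamini-Hochberg adjustment over all genes tested), 0 of 8 passed, against 0.108% of all genes (12 of 11095). At an unadjusted p below 0.05 only stat5a passed, 1 of 8, with 6.03% of all genes passing (3.52% higher in il26KO and 2.51% lower). DESeq2 called 0 of the 8 after adjustment, against 0.757% of all genes, and 0 at an unadjusted p below 0.05, against 4.27%. The log2 fold changes of the 8 genes lay between -0.29 and 0.10, with a median of -0.07 against 0.01 over all genes tested. Of the 8, 6 were below 0, as were 5188 of the 11095 genes tested. The 6 include jak2b, at -0.00046. The median size of the change, ignoring its sign, was 0.092 for the 8 genes and 0.10 for all genes. In bulk tissue, fewer cells of a type and less RNA per cell cannot be told apart, which holds for every value below.

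**Figure D1:**
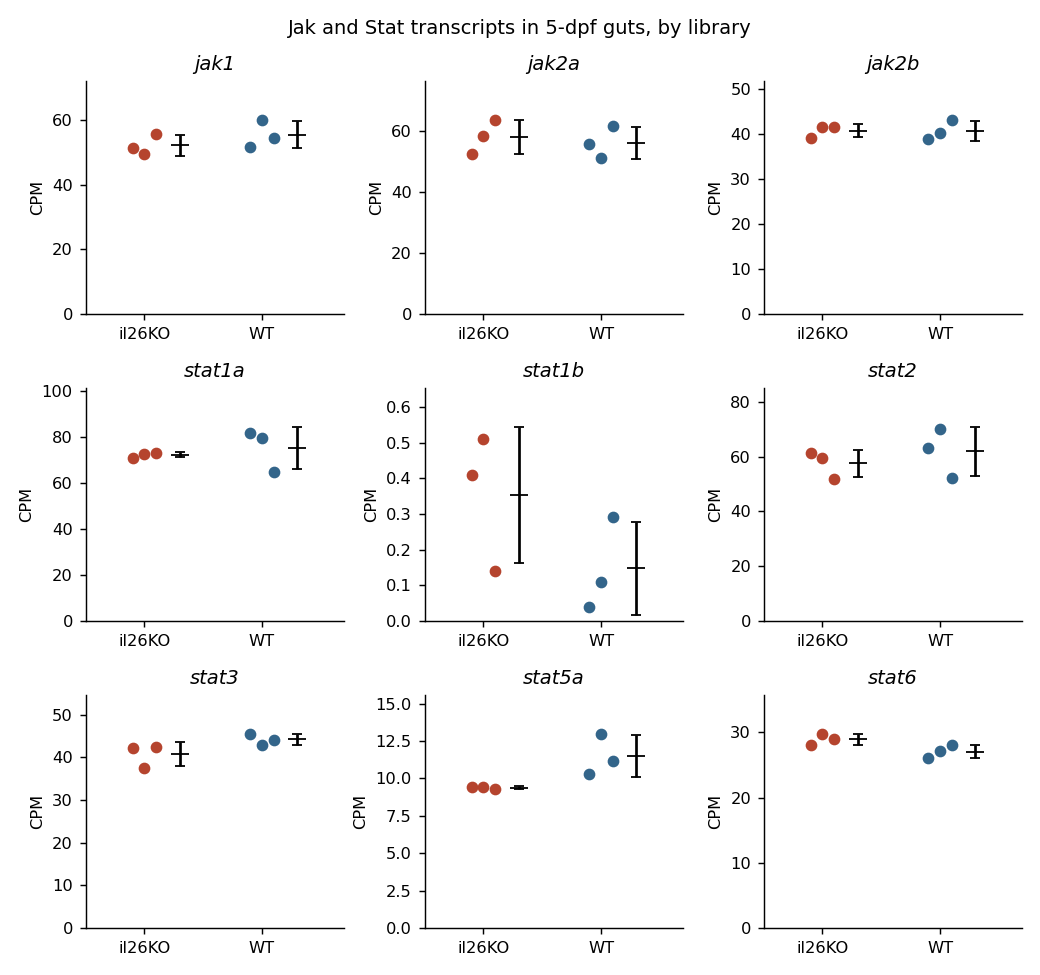
Level of each of the 9 Jak and Stat genes (CPM, axis from 0, own scale for each gene) in 3 il26KO libraries (red, left) and 3 WT libraries (blue, right); points are libraries, with the mean and SD in black. The groups overlap for every gene except stat3 and stat5a, whose il26KO libraries all lie below the WT libraries.

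Among the kinases, jak1 pairs with many receptors of the interleukin-6, interleukin-10 and interferon families. It had 51.1, 49.3 and 55.6 CPM in il26KO, against 51.6, 59.9 and 54.4 CPM in WT. The highest il26KO library exceeded the lowest 2 WT libraries, so the groups overlapped. Its log2 fold change stood at -0.09 ± 0.086 (SE, n = 3 each; 95% interval -0.29 to 0.11; adjusted p = 0.921, edgeR).

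Zebrafish carry a pair of genes related to mammalian JAK2, which serves the receptors of growth hormone, prolactin, erythropoietin and several interleukins. jak2a had 52.5, 58.4 and 63.6 CPM in il26KO, against 55.7, 51.1 and 61.7 CPM in WT. The values of the genotypes were interleaved, and the log2 fold change was 0.05 ± 0.10 (SE; interval -0.19 to 0.29; adjusted p = 0.968, edgeR). It took the opposite sign when WT replicate 2 (-0.013) or il26KO replicate 3 (-0.020) was left out.

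jak2b was the steadiest gene of the group. Its levels were 39.0, 41.5 and 41.5 CPM in il26KO, against 38.9, 40.1 and 43.1 CPM in WT, a 1.11-fold range over all 6 libraries. The log2 fold change was -0.00046 ± 0.074 (SE; interval -0.17 to 0.17; adjusted p = 1.00, edgeR). The interval leaves out levels below 0.889 times or above 1.12 times that of WT. The sign turned when WT replicate 3 or il26KO replicate 1 was left out.

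The balance of the jak2 paralogs within a library needs no scaling between libraries. jak2a contributed 57.4%, 58.4% and 60.5% of their joint counts in il26KO, against 58.9%, 56.0% and 58.9% in WT. The means, 58.8% ± 1.60 and 57.9% ± 1.66 (SD, n = 3 each), differed by 0.83 percentage points, less than either spread (exact permutation test, two-sided, p = 0.6; adjusted p = 0.6 over 3 ratios compared). The smallest p that 3 against 3 libraries allow is 0.1. Counts of paralogs depend on how reads matching both were assigned, which the sources used here do not give, and transcript lengths were not used, so levels of different genes are not ranked.

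The next genes belong to the response to interferons. stat1a had 71.0, 72.8 and 73.2 CPM in il26KO, against 81.6, 79.4 and 64.6 CPM in WT. The SD was 1.18 CPM in il26KO and 9.27 CPM in WT, with WT replicate 3 the lowest. The log2 fold change was -0.06 ± 0.10 (SE; interval -0.29 to 0.17; adjusted p = 0.958, edgeR), and when each library in turn was left out it ranged from -0.15 without WT replicate 3 (unadjusted p = 0.0823) to -0.0055 without WT replicate 1 (unadjusted p = 0.960).

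stat2 was also lowest among WT libraries in replicate 3. It had 61.2, 59.3 and 52.0 CPM in il26KO, against 63.3, 70.1 and 52.3 CPM in WT, so the lowest value of each genotype came from its replicate 3. The log2 fold change was -0.11 ± 0.12 (SE; interval -0.38 to 0.17; adjusted p = 0.928, edgeR), and when each library in turn was left out it ranged from -0.22 without WT replicate 3 (unadjusted p = 0.0726) to -0.0089 without WT replicate 2 (unadjusted p = 0.943). Stat2 acts with Irf9 in the response to type I interferon, and irf9 was named for that role. irf9 averaged 16.99 ± 1.26 CPM in il26KO and 17.96 ± 1.29 CPM in WT (SD, n = 3 each).

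stat1b, the paralog of stat1a, was near the limit of detection. It had 9, 8 and 4 counts in il26KO, against 1, 3 and 7 counts in WT, 32 in all, and was therefore not tested. WT replicate 3 had more counts than il26KO replicate 3, so the groups overlapped. Scaled to library size, the summed counts were 2.19 times as high in il26KO as in WT, with a 95% counting interval of 1.01 to 5.03 that leaves out the variation between libraries. A fit without the filter on low counts, which does include that variation, gave a log2 fold change of 1.15 ± 0.73 (SE; unadjusted p = 0.151; adjusted p = 0.906, edgeR).

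As a share of stat1a and stat1b counts together, stat1b made up 0.572%, 0.697% and 0.192% in il26KO, against 0.0497%, 0.139% and 0.451% in WT. For the highest of these, in il26KO replicate 2, the exact Clopper-Pearson interval was 0.302% to 1.37%. For the lowest, in WT replicate 1, it was 0.00126% to 0.277%. Such intervals cover counting error only, and the genotypes differed by 0.274 percentage points (exact permutation test, two-sided, p = 0.2; adjusted p = 0.3 over 3 ratios, n = 3 each).

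stat3 encodes the factor that IL-26, IL-22, IL-10 and IL-6 activate in mammalian cells. It had 42.3, 37.5 and 42.5 CPM in il26KO, against 45.6, 43.0 and 44.2 CPM in WT. All 3 il26KO libraries lay below all 3 WT libraries, as was so for 4.91% of all genes tested, and 10.9% of all genes did not overlap in one direction or the other. The nearest values of the groups, 42.5 and 43.0 CPM, were close. The log2 fold change was -0.12 ± 0.077 (SE, n = 3 each; interval -0.30 to 0.061; unadjusted p = 0.168; adjusted p = 0.898, edgeR), and it ranged from -0.16 to -0.08 when each library in turn was left out. The interval leaves out a stat3 level below 0.815 times that of WT.

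stat5a gave the largest difference among the 8 tested genes. Stat5 proteins act downstream of growth hormone, prolactin, erythropoietin and several interleukins. stat5a had 9.44, 9.40 and 9.27 CPM in il26KO, against 10.3, 13.0 and 11.2 CPM in WT. The il26KO libraries were almost level, at 9.37 ± 0.0873 CPM, while the WT libraries averaged 11.5 ± 1.39 CPM (SD, n = 3 each), and the groups did not overlap. The level in il26KO was 0.816 times that in WT (interval 0.684 to 0.973), a log2 fold change of -0.29 ± 0.11 (SE; unadjusted p = 0.0283; adjusted p = 0.747, edgeR).

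The stat5a difference did not pass the adjustment over all genes, and its size leaned on 1 WT library. Without WT replicate 2, the highest of the 6, the log2 fold change was -0.19 (unadjusted p = 0.12). Without il26KO replicate 3 it was -0.29, as with all 6 libraries, though the unadjusted p was larger (0.0719). The other 4 omissions gave -0.38 to -0.31 with unadjusted p between 0.0119 and 0.0476 (edgeR).

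Signals through the erythropoietin receptor reach Stat5, and markers of red blood cells were set beside stat5a. The 6 erythroid markers summed to 45.2, 39.7 and 54.8 CPM in il26KO, against 54.3, 72.1 and 103 CPM in WT. These sums overlapped, with il26KO replicate 3 (54.8) above WT replicate 1 (54.3). All 5 tested erythroid markers had log2 fold changes below 0, with a median of -0.68. Of these, 2 had an unadjusted p below 0.05, as did 2.51% of all genes in that direction. They were hbbe1.1 (adjusted p = 0.658, edgeR) and hbae3 (adjusted p = 0.599, edgeR). Leukocyte markers summed to 32.9 to 37.8 CPM in il26KO and 31.7 to 36.3 CPM in WT, with mpeg1.1 and lck at 0 counts, 2 of 11 markers. The part of either cell type in the stat5a difference was not tested.

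stat5b and stat4 belong to the same family and were measured beside the named genes. stat5b had 14.8, 13.7 and 15.3 CPM in il26KO, against 15.6, 15.8 and 14.2 CPM in WT (log2 fold change -0.05 ± 0.088, SE). stat4 had 29.6, 29.8 and 28.4 CPM in il26KO, against 30.9, 26.4 and 27.1 CPM in WT (0.06 ± 0.083, SE). The groups overlapped for both genes.

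Set against its paralog within each library, stat5a made up 38.9%, 40.6% and 37.7% of stat5a and stat5b counts in il26KO, against 39.7%, 45.2% and 43.9% in WT. The WT value of 39.7% fell among the il26KO values. The difference was -3.89 percentage points (exact permutation test, two-sided, p = 0.2; adjusted p = 0.3 over 3 ratios, n = 3 each). This ratio was added after the data were seen, so its p-value is given as a description only.

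stat6, the factor of interleukin-4 and interleukin-13 signalling, had the highest log2 fold change of the 8. It had 28.01, 29.8 and 29.1 CPM in il26KO, against 26.0, 27.1 and 28.08 CPM in WT. Only the lowest il26KO library lay under the highest WT library, and the means were 29.0 ± 0.889 CPM and 27.1 ± 1.02 CPM (SD, n = 3 each). This gave a log2 fold change of 0.10 ± 0.070 (SE; interval -0.066 to 0.26; adjusted p = 0.901, edgeR).

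**Figure D2:**
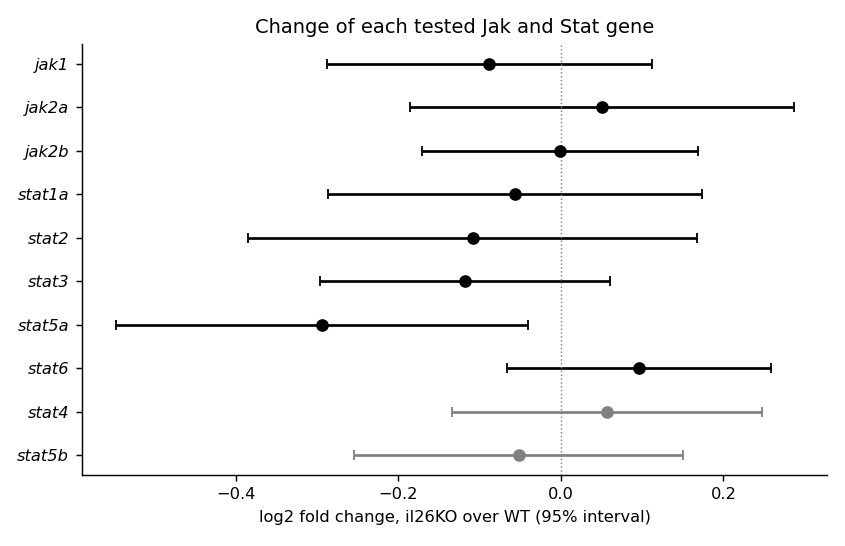
log2 fold change of il26KO over WT (horizontal axis) with its 95% interval for the 8 tested Jak and Stat genes (black) and for stat4 and stat5b (grey), 3 libraries per genotype. The interval of stat5a, -0.55 to -0.040, is the only one that leaves out 0.

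Together the 9 genes took 355 to 367 CPM in il26KO and 360 to 384 CPM in WT. Their highest level over the 6 libraries was between 1.11 times (jak2b) and 1.40 times (stat5a) the lowest for the 8 tested genes. For all genes tested the median of this ratio was 1.34, with quartiles of 1.21 and 1.65. stat6 (1.14), jak1 (1.21), stat3 (1.22), jak2a (1.24) and stat1a (1.26) lay under the median of all genes, and stat2 (1.35) just above it. The standard errors of the 8 log2 fold changes, 0.070 to 0.12, were no larger than the median of 0.125 over all genes.

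In the RefSeq annotation of the GRCz12tu assembly, used here only for the order of genes, stat3 and stat5a are immediate neighbours. They were the only 2 of the 8 tested genes whose genotypes did not overlap, both lower in il26KO, and neither passed the adjusted test. Of all genes tested, 10.9% did not overlap, and 4.91% had all il26KO libraries below the WT libraries. Across the 6 libraries, stat3 and stat5a had r = 0.40 on log2 CPM (exact permutation p = 0.394). Whether their position bears on their levels was not tested. The nearest tested genes on either side did not pass the adjusted test: atp6v0a1a had a log2 fold change of 0.04 ± 0.094 and kcnh4a one of 0.25 ± 0.37 (SE). stat4 and stat1b are immediate neighbours as well, and the genotypes overlapped for both.

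The 28 pairs of tested genes were also compared across the 6 libraries on log2 CPM, where all genes of a library share its depth and scaling. No pair passed an adjusted p below 0.05 over the 28, and 2 had an unadjusted p below 0.05. jak2a and stat2 ran opposite to each other, with Pearson r = -0.93 (exact permutation p = 0.0153, adjusted p = 0.428, n = 6) and Spearman rho = -0.943 (exact permutation p = 0.0167, adjusted p = 0.467). Without the 2 libraries farthest from the median of jak2a, r was -0.82. stat3 and stat6 had r = -0.82 (exact permutation p = 0.0417, adjusted p = 0.5, n = 6) and rho = -0.71 (exact permutation p = 0.136). Without the 2 libraries farthest from the median of stat3, r was -0.23. The same step moved jak1 and jak2a from r = -0.13 to 0.98. With so few libraries left, neither -0.82 for jak2a and stat2 nor -0.23 settles what a relation rests on. stat1a and stat2 had r = 0.73 (exact permutation p = 0.0889, n = 6) and rho = 0.54.

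**Figure D3:**
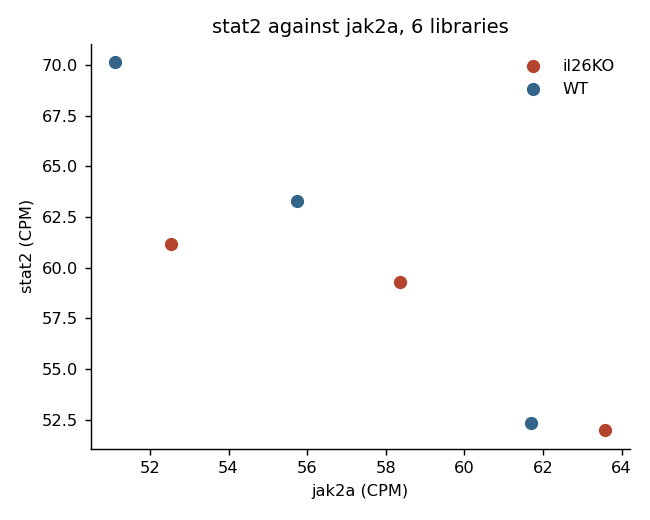
Level of stat2 (vertical axis, CPM) against that of jak2a (horizontal axis, CPM) in 3 il26KO (red) and 3 WT (blue) libraries; each point is a library. The libraries of both genotypes lie along one falling band (r = -0.93 on log2 CPM), with axes that do not start at 0.

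For each tested gene, the gene most like it among all others was taken as the one with the highest r of log2 CPM over the 6 libraries. These were adarb1a for jak1, alg3 for jak2a, trim35-24 for jak2b, hebp2 for stat1a, gstt2 for stat2, snrnp35 for stat3, si:ch211-197h24.9 for stat5a and rnf34a for stat6, with r between 0.989 and 0.997. None of these 8 genes is another Jak or Stat gene. Each was picked as the highest over all other tested genes and is given as a description only.

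The genes around the Jak and Stat proteins were counted by role from fixed lists. Beside each list stand the shares over all genes tested: 0.108% were called, and 3.52% were higher and 2.51% lower at an unadjusted p below 0.05 (edgeR). With DESeq2 in place of edgeR, 1 receptor chain, 4 feedback genes, 1 interferon-stimulated gene, 2 Stat3 targets and 3 Stat5 targets were called, all higher in il26KO, and 0 ligands, other inhibitors, adaptors or partners. Some genes stand in several lists, and these calls came from 8 distinct genes. Of all genes, DESeq2 called 0.505% as higher in il26KO. It gave no adjusted p for some genes with few counts, among them pias4b, il23r, crlf1b, il34 and cntf. Those genes could not be called in either direction. Of 34 ligands named, 27 were listed, 6 of them at 0 in every library, and 5 could be tested. 0 of the 5 passed an unadjusted p below 0.05, and the median log2 fold change was -0.05. That median was 0.019 without WT replicate 3, -0.095 without WT replicate 2 and -0.26 with no filter on low counts, so its direction was not settled. The ligands with the smallest p were crlf1b, a secreted partner of cardiotrophin-like cytokine (-0.25 ± 0.22), il34, a ligand of the macrophage receptor Csf1r (-0.28 ± 0.30), and cntf (0.22 ± 0.33, SE). The last 2 took the opposite sign when 1 WT library was left out, replicate 3 for il34 (0.068) and replicate 1 for cntf (-0.046). Csf1r is itself a kinase, unlike the Jak-bound receptors described above, so il34 stands outside that scheme although the list counted it.

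Of 28 tested receptor chains, 0 passed the adjusted test, 3 had an unadjusted p below 0.05 upward and 1 downward, and the median was -0.004. Over all genes tested, 3.52% were higher and 2.51% lower at that unadjusted p. il13ra2, a decoy receptor for interleukin-13 in mammals, had 33.0, 35.1 and 33.1 CPM in il26KO, against 25.8, 23.3 and 21.5 CPM in WT (log2 fold change 0.52 ± 0.086, SE; adjusted p = 0.133, edgeR). Its genotypes did not overlap, as for 10.9% of all genes tested, and it was past the threshold with DESeq2 (adjusted p = 0.00893). It was named for its small p in these same libraries, so neither point is separate evidence. ghrb, a growth hormone receptor that signals through Jak2 and Stat5, had a log2 fold change of 0.41 ± 0.13 (SE; adjusted p = 0.646, edgeR). il23r, a receptor chain for interleukin-23, had one of -0.82 ± 0.29 (SE; adjusted p = 0.717, edgeR) on 168 counts in all. The third higher chain was il10ra, at 0.64 ± 0.26 (SE, adjusted p = 0.808, edgeR) on 122 counts in all. For the chains of the interleukin-26 receptor, il20ra had 0.16 ± 0.11 (SE, adjusted p = 0.901, edgeR) and il10rb 0.08 ± 0.080 (SE, adjusted p = 0.922, edgeR).

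Several feedback inhibitors, though not all, gave larger values than the kinases and Stats. Socs and Cish proteins are made in response to Stat activity and shut the receptor or kinase down. Of 9 tested members of this list, 1 was called, socs1a, which rose in il26KO. At an unadjusted p below 0.05, 5 were higher and 1 lower, against 3.52% and 2.51% of all genes tested. The median log2 fold change of 0.78 was the value of socs3a (adjusted p = 0.617, edgeR). The 1 lower gene was socs6b (-0.29 ± 0.11 SE, adjusted p = 0.746, edgeR), whose il26KO libraries all lay below the WT libraries. socs3b (0.013), socs5a (0.031) and socs9 (-0.17) did not pass an unadjusted p below 0.05. The list median lay between 0.25 and 0.81 when each library was left out in turn. The direction of this list was known from earlier results of these data and is not independent evidence.

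socs1a, a direct inhibitor of Jak kinases, had 35.8, 30.3 and 21.97 CPM in il26KO, against 10.8, 9.32 and 9.19 CPM in WT (log2 fold change 1.59 ± 0.18, SE; adjusted p = 0.0280, edgeR). Leaving out any library but il26KO replicate 3 brought its adjusted p to between 0.0730 and 0.209, at a log2 fold change of 1.40 to 1.65. cish, a target of Stat5 that blocks its docking, had 107.7, 61.7 and 68.9 CPM in il26KO, against 35.3, 34.9 and 39.2 CPM in WT (1.12 ± 0.20, SE; adjusted p = 0.143, edgeR). cishb had a log2 fold change of 1.57 ± 0.23 (adjusted p = 0.0914, edgeR) and socs2, another Stat5 target, one of 0.83 ± 0.18 (SE; adjusted p = 0.252, edgeR). The genotypes did not overlap for any of these 4 genes, and with DESeq2 cish, cishb and socs2 were past the threshold (adjusted p = 8.3e-06, 3.98e-05 and 0.00728). Of all genes tested, 10.9% did not overlap. The 4 genes were named for their small p in these same libraries, so neither point is separate evidence.

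The counts of cish were also set against those of stat5a in each library, a ratio formed after cish had been seen higher and stat5a lower in all 3 il26KO libraries. It is therefore given as a description, with no test. There were 11.4, 6.57 and 7.43 cish counts per stat5a count in il26KO, against 3.43, 2.68 and 3.52 in WT. That these values did not overlap followed from the choice of the genes. Counts of different genes depend on transcript length, so only the comparison between libraries carries meaning.

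**Figure D4:**
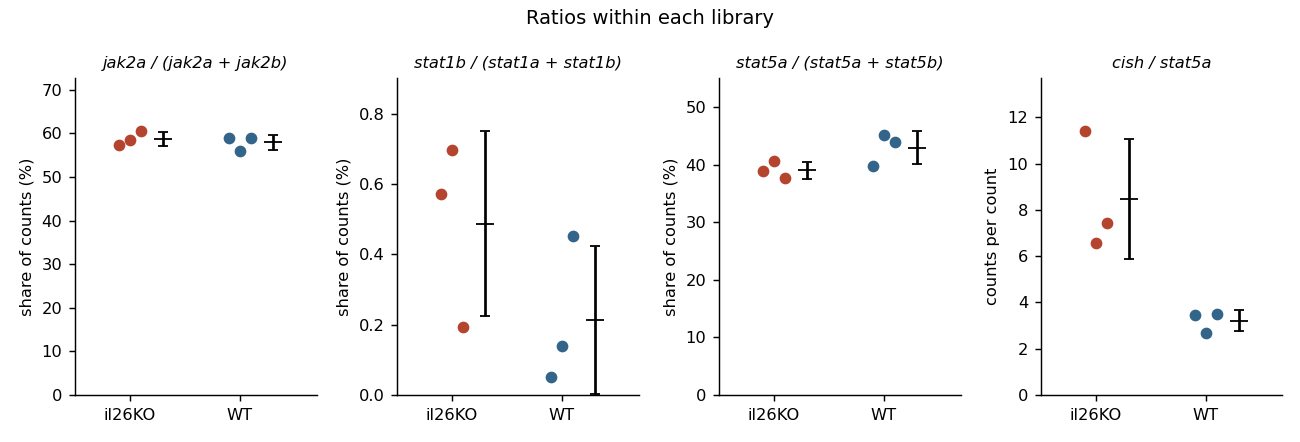
Ratios formed within each library, which need no scaling between libraries: the share of jak2a, stat1b and stat5a in the counts of each gene and its paralog (%), and cish counts per stat5a count; 3 il26KO (red, left) and 3 WT (blue, right) libraries, mean and SD in black, axes from 0. The genotypes overlap in the first 3 panels; the last, at 6.57 to 11.4 in il26KO and 2.68 to 3.52 in WT, joins 2 genes already seen apart in opposite directions, so its separation is no further result.

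Of 10 other inhibitors tested, 0 passed the adjusted test, against 0.108% of all genes tested. At an unadjusted p below 0.05, 1 was lower in il26KO, against 2.51% of all genes tested. The lower gene was pias4b, of a family that binds Stats and attaches SUMO to proteins. It had 1, 2 and 2 counts in il26KO, against 14, 15 and 15 counts in WT (adjusted p = 0.124, edgeR). Each il26KO count of pias4b lay under the 3 counts taken as the limit of detection. It passed the filter on low counts only through the WT libraries, where it was higher. Its place among the tested genes is thus not independent of the difference. The stricter filter, at least 10 counts in every library, left it out. Its summed, scaled counts in il26KO were 0.13 times those in WT. The counting interval of 0.040 to 0.33 leaves out the variation between libraries. DESeq2 gave it no adjusted p (log2 fold change -2.93, unadjusted p = 0.000584). The likelihood ratio test, which called 93 genes against 12, gave an adjusted p of 0.000108. With a replicate block the adjusted p was 0.408, and with each library in turn left out it was 0.140 to 0.424 (edgeR quasi-likelihood test). ptpn11b, a phosphatase gene, had a log2 fold change of -0.19 ± 0.12, and cbl, a ubiquitin ligase gene, one of 0.11 ± 0.085 (SE).

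Of 8 tested adaptors and partners, 0 passed the adjusted test, against 0.108% of all genes tested. At an unadjusted p below 0.05, 1 was higher in il26KO, pim1, against 3.52% of all genes tested. pim1, a kinase gene that Stat3 and Stat5 activate, had 166, 149 and 159 CPM in il26KO, against 134, 123 and 116 CPM in WT (log2 fold change 0.34 ± 0.086, SE; adjusted p = 0.396, edgeR). stam2 and pim3 had log2 fold changes of 0.10 ± 0.086 and 0.18 ± 0.15 (SE).

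Of 33 interferon-stimulated genes named, 23 were listed and 12 had enough counts to be tested. Of the 12, 0 passed the adjusted test, against 0.108% of all genes tested. At an unadjusted p below 0.05, 1 was higher and 1 lower, against 3.52% and 2.51% of all genes tested. The median log2 fold change was -0.10, and it leaves out the listed genes with too few counts. b2m, a subunit of class I major histocompatibility molecules, had a log2 fold change of 0.93 ± 0.15 (SE; adjusted p = 0.133, edgeR). irf1b, of the interferon regulatory factor family, had one of -0.62 ± 0.12 (SE; adjusted p = 0.186, edgeR). irf3 had one of -0.28 ± 0.13 (SE; unadjusted p = 0.0630). The genes with the smallest p in this list thus pointed in both directions.

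Of 26 tested Stat3 target genes, 2 were called, both higher in il26KO, with 6 upward and 1 downward at an unadjusted p below 0.05 and a median of 0.05. Of all genes tested, 0.108% were called, and 3.52% were higher and 2.51% lower at that unadjusted p. The 2 were mych (log2 fold change 1.26 ± 0.14, SE; adjusted p = 0.0280, edgeR) and myca (0.79 ± 0.098, SE; adjusted p = 0.0408, edgeR), genes of the Myc family that drive growth and division and answer to many inputs besides Stat3. mych kept an adjusted p below 0.05 when il26KO replicate 1 or il26KO replicate 3 was left out, and the other 4 omissions gave 0.0769 to 0.207. Each of the 6 omissions brought the adjusted p of myca to between 0.0769 and 0.296. The 1 downward gene was hamp (-1.38 ± 0.47, SE; adjusted p = 0.693, edgeR), the largest change of the list in size, with overlapping genotypes. In all, 16 of the 26 Stat3 targets had log2 fold changes above 0 and 10 below. Of 7 tested Stat5 target genes, 0 passed the adjusted test and 4 had an unadjusted p below 0.05, all 4 upward, with a median of 0.48 that lay between 0.29 and 0.72 when each library was left out in turn. These were cish, cishb, socs2 and pim1, of which the first 3 also stand among the feedback genes above. pim1 also stands among the adaptors and partners and among the Stat3 targets. The lists share genes and were chosen with earlier results of these data known. Their counts are therefore neither separate nor independent evidence.

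**Figure D5:**
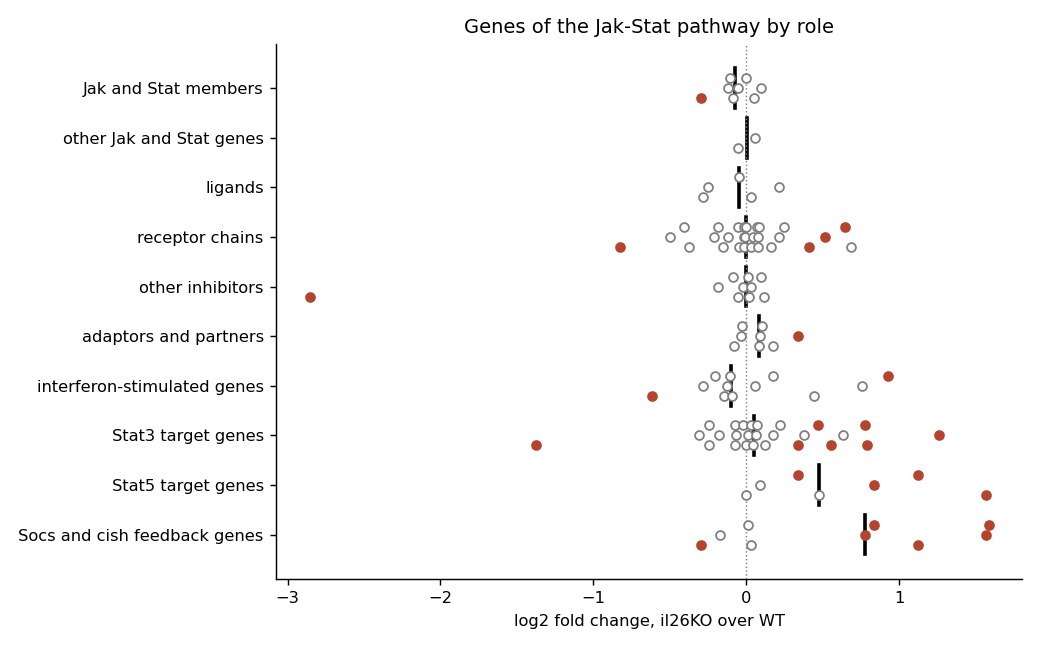
log2 fold change of il26KO over WT (horizontal axis) for each tested gene of the lists named in the text, grouped by role; filled points have an unadjusted p below 0.05, open points do not, and black bars are medians. The Jak and Stat genes span -0.29 to 0.10 around a median of -0.07, and the Socs and cish genes -0.29 to 1.59 around a median of 0.78. Some genes stand in more than one list.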

How the data were processed

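The authors deposited raw counts per gene by symbol, made from poly(A)-selected, stranded, paired-end reads of 100 bp. Per the labels, reads were checked with FastQC 0.11.8 and aligned to danRer11. The aligner, the counting tool and its handling of reads shared by paralogs are not given in the sources used here. Groups came from sample titles, with 0 other columns of sample values in the table.

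Genes were kept by filterByExpr (minimum count 10, minimum total 15), leaving 11095 and setting aside 4324. Library sizes were scaled by TMM, and il26KO was compared with WT with edgeR 4.0.16 in R 4.3.3 (glmQLFit, glmQLFTest, two-sided, genotype as the only term). P-values were adjusted by Benjamini-Hochberg over all genes tested. The SE was taken from the log2 fold change and its F value, and 95% intervals used t with 7.967 degrees of freedom. CPM used TMM library sizes, and log2 CPM a prior count of 2. The fit was tested on simulated data. Alternatives were size factors (RLE), no or a stricter filter, a replicate block, DESeq2 1.42.0, a likelihood ratio test, a robust fit and leaving out each library.

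The genes and lists were chosen with earlier results of these data known. The text names every Jak and Stat gene of the set, and from each list the genes called plus up to 3 with the smallest p. It also names the gene most like each tested one, hamp as the only Stat3 target lower at an unadjusted p below 0.05, and il26. Every tested feedback gene is named too, as are il10ra and the interleukin-26 receptor chain genes il20ra and il10rb. The titles call the libraries biological replicates. RefSeq symbols were matched for 10 of 10 genes.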

Additional observations from a re-analysis of the deposited data

How the results depend on the processing

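None of the 8 tested Jak and Stat genes was called under any alternative. At an unadjusted p below 0.05 there was 1 such gene, stat5a, against 0 with DESeq2 and 0 to 2 when a library was left out. Across all genes, 12 were called with the quasi-likelihood test, 84 with DESeq2, 93 with the likelihood ratio test, 2 with a replicate block and 3 to 8 when a library was left out. Same-numbered libraries deviated from their group means with r = -0.23, -0.043 and 0.11. Without the same values for differently numbered libraries, these do not settle whether the numbers pair them. The replicate block left stat5a at -0.28. It brought the adjusted p (edgeR) of socs1a to 0.0780, of mych to 0.190 and of myca to 0.236.

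Jak and Stat genes whose genotypes did not overlap numbered 2, and 2 to 5 when a library was left out, the 5 without WT replicate 3. The share of all genes tested that did not overlap was 10.9%, and between 16.7% and 26.8% when a library was left out, the 26.8% also without WT replicate 3. Leaving out each library gave -0.020 to 0.12 for jak2a, -0.044 to 0.042 for jak2b, -0.49 to 0.068 for il34 and -0.046 to 0.50 for cntf. jak2a turned to -0.013 without WT replicate 2 and -0.020 without il26KO replicate 3. jak2b turned to 1.3e-05 with the replicate block, 0.042 without WT replicate 3 and 0.012 without il26KO replicate 1. The jak2a share difference spanned -0.129 to 1.53 points and turned to -0.042 points without il26KO replicate 3. With a library left out, list medians ranged from -0.037 to 0.050 for receptor chains, 0.017 to 0.10 for adaptors and partners, -0.11 to -0.022 for interferon-stimulated genes and 0.024 to 0.14 for Stat3 targets. The cause was not tested. With 3 libraries per genotype, the 95% intervals reach -0.55 for stat5a and 0.29 for jak2a on the log2 scale, and stat1b, at 32 counts, was tested only without the filter on low counts.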
